A study of Mus musculus with 6 samples.

Results

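The genes described here are 37 germ cell genes, all of which have a row in the deposited table of 51810 genes. They were chosen by symbol as genes of meiosis, of the small RNA pathway that guards the germline, of sperm and of the oocyte coat, whose use is normally limited to the gonads. The rule that picks them uses symbols and no measured value, though earlier results of these data were known when the list was made. The libraries came from sorted mature medullary thymic epithelial cells (mTEChi) of mice aged 4 to 5 weeks. There were 3 from animals labelled as having no Cre and a wild-type p53 genotype (WT) and 3 from animals with a conditional knockout of p53 (cKO), the transcription factor encoded by Trp53. Each library was made from poly(A) RNA of 75000 sorted cells. The labels do not name the Cre line, nor say whether each library is 1 animal, so p-values measure the spread between these libraries, which may be technical in part.

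Medullary thymic epithelial cells transcribe genes of many organs and show the products to developing T cells, so that cells reacting to the body's own proteins are deleted or turned into regulatory cells. Many germ cell proteins are a special case of self, because those of the testis's later stages first appear at puberty, behind tissue barriers, while others are already made in fetal germ cells. In other somatic cells many of these genes are kept silent by DNA methylation and by a repressive complex that contains the E-box binding proteins MGA and MAX. The autoimmune regulator AIRE and the zinc finger protein FEZF2 drive much of the tissue antigen transcription in these cells.

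The libraries matched their labels. Trp53 had 66.7, 55.6 and 60.2 TPM (the deposited level, scaled for gene length and library) in WT and 4.65, 4.51 and 4.10 TPM in cKO. Library totals lay between 45457892 and 50128045 counts, and 3 counts, taken as the detection floor, correspond to 0.0598 to 0.0660 CPM (counts scaled to library size). All 16 markers of mature medullary cells reached 1 TPM in WT, and their summed level was 35940 to 38500 TPM in WT and 36430 to 37760 TPM in cKO. Cd74, at a mean of 22750 TPM in WT and 22580 TPM in cKO, made up most of that sum. By edgeR 4 of the 16 had an unadjusted p under 0.05, against 8.51% of all genes tested, and 0 passed after adjustment. Of these, Cldn3, Epcam and Tnfrsf11a were higher in cKO and Aire was lower. Thymocyte markers summed to 50.7 to 96.9 TPM in WT and 52.3 to 88.6 TPM in cKO, B cell markers to 52.2 to 62.8 and 52.3 to 57.3 TPM, and fibroblast and endothelial markers to 64.8 to 70.5 and 63.5 to 75.3 TPM. Myeloid markers summed to 823 to 1072 TPM in WT and 1012 to 1475 TPM in cKO, most of it from Lyz2 (means of 905 and 1160 TPM). The 7 red cell markers were the only one of these marker lists whose summed level did not overlap between the groups, with 190.1 to 207 TPM in WT and 121 to 178 TPM in cKO, and their part in the results below was not tested.

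Reads were counted for all 37 germ cell genes, though for a few of them, named below, the reads may come in part from another gene. At least 3 counts were present in all 6 libraries for 33 genes, and the only library with 0 counts of any of them was cKO library 3, for the acrosomal membrane gene Spaca1. The levels were low. In WT, 26 of the 37 genes (70.3%) had a mean of 1 TPM or more, against 81.1% of 20121 protein-coding genes, and 6 had 10 TPM or more. The median germ cell gene stood at 1.34 TPM, and the median protein-coding gene at 7.12 TPM. The germ cell genes ranged from 0.199 TPM for Boll to 23.9 TPM for Zp2. The 5 highest genes took 54.3% to 64.4% of the summed level in each library, so the sum speaks mostly of Zp2, Stra8, Zp3, Tex14 and Izumo1.

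**Figure D1:**
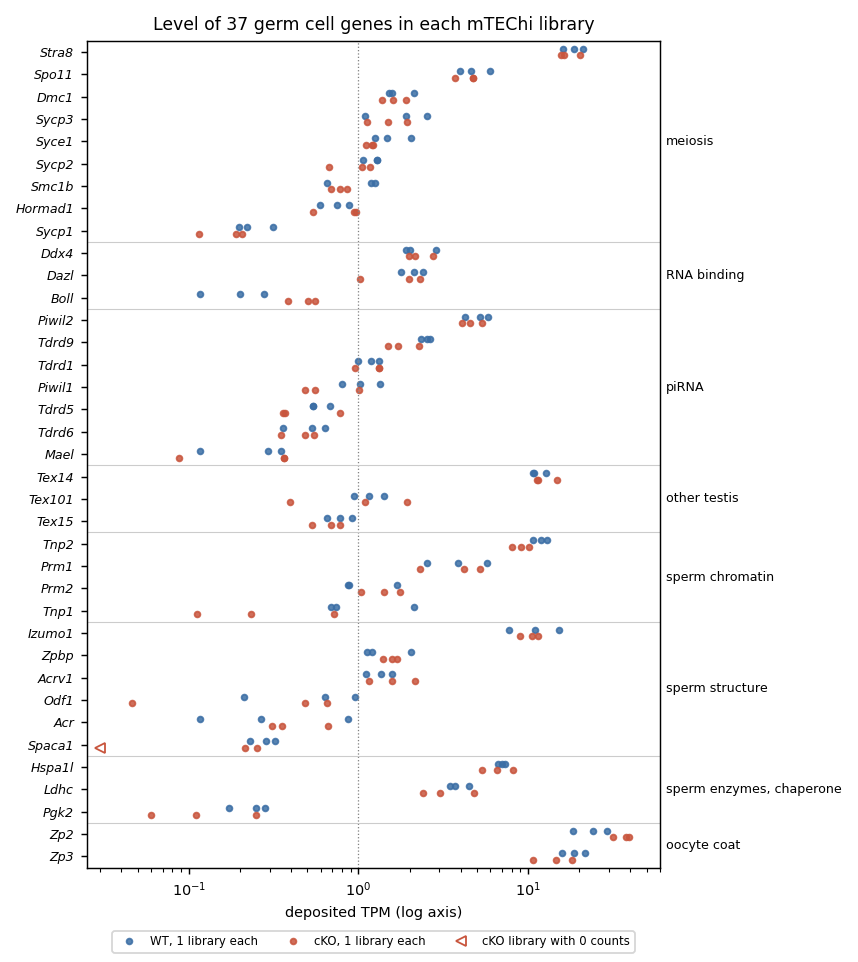
Deposited TPM of the 37 germ cell genes on a log axis, 1 point per library, with WT in blue and cKO in red and genes ordered by role and level. The dotted line marks 1 TPM, the open triangle marks the 1 library with 0 counts, and Zp2 and Boll are genes whose cKO points all lie to the right of the WT points.

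No germ cell gene passed the main test between cKO and WT, which took no account of the replicate number. Of the 37, 34 had enough counts to be tested by edgeR, and none had an adjusted p under 0.05, where 0.0596% of all 28543 genes tested did. At an unadjusted p under 0.05 there were 3 of 34 (8.82%), Zp2 and Boll higher and Tdrd9 lower in cKO, against 8.51% of all genes tested. The libraries of the 2 groups did not overlap for 5 of 34 (14.7%), against 14.4% of all genes tested. Both shares were near the background. DESeq2 called Zp2 and no other germ cell gene, where 0.887% of the genes to which it gave an adjusted p were called, and it gave none to some of the 37, Boll and Prm1 included. A fit with the replicate number as a block also called Zp2 alone, where 0.711% of all genes tested were called, and limma-voom called none of the germ cell genes.

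Most germ cell genes had slightly lower values in cKO, on average over its libraries. The log2 fold change, cKO over WT, was below 0 for 23 of 34 (67.6%), against 50.95% of all genes tested. Its median was −0.15, against −0.01 over all genes tested, and single values ran from −0.64 to 1.24. With 1 library left out at a time the median lay between −0.26 (without cKO library 3) and −0.06 (without cKO library 1), and it was −0.22 without WT library 1. cKO library 1 was the lowest of the 6 for 12 of 34 germ cell genes, against 18.1% of all genes tested, and WT library 2 was the lowest for 1, against 15.3%. The median deviation of the 34 genes from their means over the libraries was −0.018, 0.089 and 0.097 (log2) in WT. In cKO it was −0.131, −0.076 and 0.098, so the groups overlapped and cKO library 3 was the highest. Aire was lowest in cKO library 1, at 495 TPM, and highest in WT library 1, whose germ cell median was the lowest in WT. The other cKO libraries had 705 and 680 TPM of Aire, and WT had 861, 748 and 704 TPM. In CPM scaled by TMM, as in the test, Aire had 1417, 1301 and 1201 in WT and 822, 1160 and 1159 in cKO. Fezf2 had 501, 430 and 430 in WT and 402, 408 and 404 in cKO. On that scale both genes were lower in all cKO libraries than in any WT library, and neither passed after adjustment. The part of Aire and Fezf2 in the germ cell values was not tested. Summed over all 37 genes the level was 144, 152 and 148 TPM in WT and 141, 151 and 150.2 TPM in cKO. The groups overlapped in that sum.

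**Figure D2:**
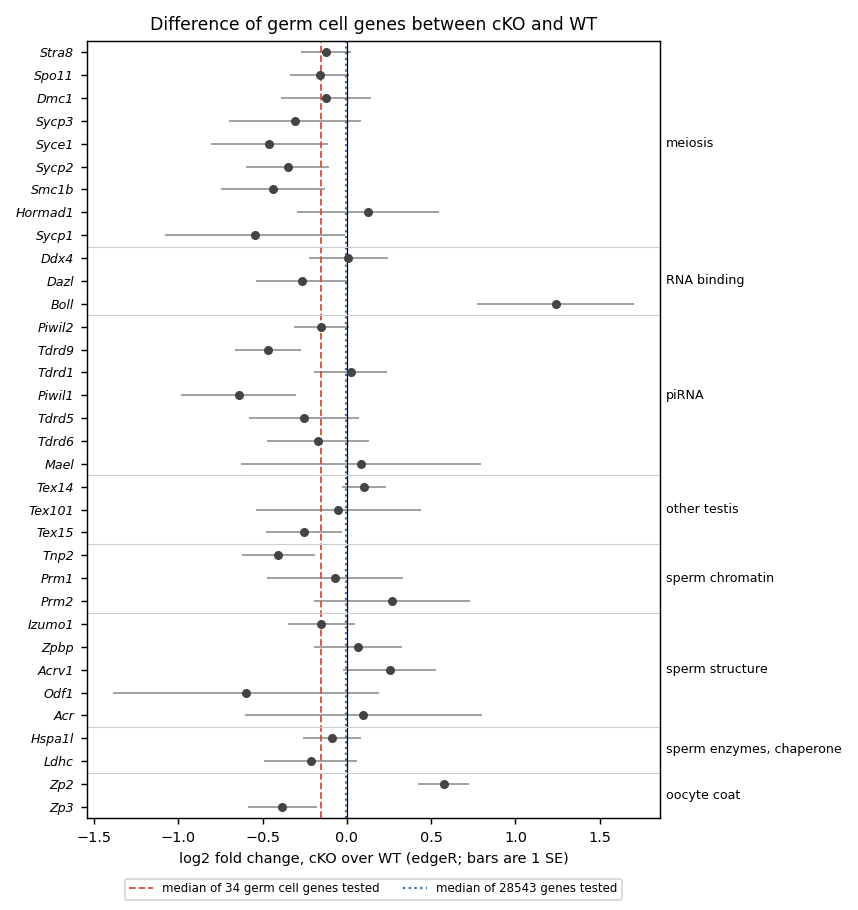
Log2 fold change of the 34 germ cell genes tested, cKO over WT, with bars of 1 standard error (SE), grouped by role. The dashed red line is the median of these genes (−0.15) and the dotted blue line that of all 28543 genes tested (−0.01), and no point passed the adjusted threshold.

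The 2 oocyte coat genes were among the 3 most abundant. Both encode glycoproteins of the zona pellucida, the shell around the egg to which sperm bind. Zp2 (ENSMUSG00000030911, chromosome 7, 120126772 to 120145291 in mm10, minus strand) had 24.0, 29.2 and 18.5 TPM in WT and 37.7, 39.4 and 31.7 TPM in cKO. All cKO libraries were above all WT libraries. It had the smallest p of the germ cell genes, with a log2 fold change of 0.57 (SE 0.151, edgeR adjusted p = 0.2996) and did not pass. DESeq2 gave 0.58 (SE 0.156, adjusted p = 0.0292), and edgeR without a filter on low counts gave an adjusted p of 0.0310, where 0.345% of 46386 genes were called. Over all settings its log2 fold change lay between 0.42 and 0.77, and its adjusted p between 0.00839 (replicate block) and 0.882 (edgeR without WT library 3).

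Zp3 (ENSMUSG00000004948, chromosome 5, 135980099 to 135988624, plus strand), which encodes the other main coat protein, had 15.9, 18.6 and 21.6 TPM in WT and 14.7, 10.7 and 18.3 TPM in cKO. The groups overlapped, and cKO library 2 was the lowest. Its log2 fold change was −0.38 (SE 0.202, adjusted p = 0.653). Whether Zp2 and Zp3 differ from each other in their response was not tested. The sum of the 2 coat genes was 39.9, 47.7 and 40.1 TPM in WT and 52.4, 50.1 and 49.96 TPM in cKO. The sum of the 4 transition protein and protamine genes was separated the other way. It was 16.9, 17.4 and 20.2 TPM in WT and 13.6, 15.2 and 15.3 TPM in cKO. Sums of the other groups of germ cell genes overlapped between WT and cKO.

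Genes of meiosis made up the largest group, with 9 members, all tested, none past the threshold, and 8 of 9 log2 fold changes below 0 (median −0.31). Stra8, which is induced by retinoic acid and needed for entry into meiosis (ENSMUSG00000029848, chromosome 6, 34920163 to 34939344, plus strand), was by far the most abundant. It had 16.0, 20.97 and 18.7 TPM in WT and 15.5, 20.2 and 16.4 TPM in cKO, and its groups overlapped (log2 fold change −0.13, SE 0.150, adjusted p = 0.877). Spo11, whose product makes the DNA breaks that start meiotic recombination (ENSMUSG00000005883, chromosome 2, 172977700 to 172993576, plus strand), had 5.99, 4.601 and 3.99 TPM in WT and 3.72, 4.75 and 4.73 TPM in cKO. The lowest value was in cKO library 1, and the groups overlapped (log2 fold change −0.16, SE 0.176, adjusted p = 0.859).

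The remaining meiosis genes encode parts of the chromosome axis and of the synaptonemal complex that joins paired chromosomes, a meiotic cohesin and a recombinase. Dmc1, the recombinase, had 1.74 ± 0.333 TPM in WT and 1.63 ± 0.261 TPM in cKO (SD, n = 3 each, as for all values with ± below). Syce1, a central element protein, had 1.58 ± 0.412 and 1.17 ± 0.0581 TPM, with all cKO libraries below all WT libraries (log2 fold change −0.46, SE 0.345, adjusted p = 0.770). Sycp2 had 1.21 ± 0.125 and 0.962 ± 0.260 TPM, and Smc1b, the cohesin subunit, 1.03 ± 0.333 and 0.775 ± 0.0838 TPM. Sycp3, Hormad1 and Sycp1 share sequence with other genes. Of the exon bases of Sycp3 52.2% overlap exons of Chpt1 on the opposite strand, which had a mean of 806 counts against 44.5 for Sycp3. Strand was ignored in counting, so its 1.85 ± 0.727 and 1.51 ± 0.405 TPM may hold reads of Chpt1. Of the 25-base words of Hormad1 transcripts 40.8% also occur in other genes, most often in Gm15529, and of those of Sycp1 22.1%, most often in its pseudogene Sycp1-ps1. The counting left out reads with several alignments, so the levels of Hormad1 (0.736 ± 0.142 and 0.812 ± 0.240 TPM) and Sycp1 (0.244 ± 0.0615 and 0.1696 ± 0.0490 TPM) may be too low.

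Among the 3 genes of germ cell RNA-binding proteins, Ddx4 and Dazl were measured at about the same level. Ddx4, the mouse Vasa helicase and a classic germ cell marker (ENSMUSG00000021758, chromosome 13, 112598333 to 112652475, minus strand), had 2.01, 1.898 and 2.86 TPM in WT and 1.99, 2.16 and 2.76 TPM in cKO. The groups overlapped nearly fully (log2 fold change 0.01, SE 0.235, adjusted p = 0.996), and scaling by library totals or by upper quartiles turned the sign of this value near 0. Dazl, which controls translation in germ cells, had 2.101 ± 0.300 and 1.77 ± 0.671 TPM, with cKO library 1 the lowest at 1.02 TPM.

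Boll, a relative of Dazl needed for sperm maturation (ENSMUSG00000025977, chromosome 1, 55248658 to 55363469, minus strand), had the largest fold difference of the 34 genes tested. Its counts were 14, 21 and 9 in WT and 40, 35 and 30 in cKO, or 0.201, 0.278 and 0.117 TPM against 0.555, 0.504 and 0.383 TPM. All cKO libraries were above all WT libraries, at a level where 0.199 ± 0.0802 TPM in WT made it the lowest of the 37 genes. The log2 fold change of 1.24 had an SE of 0.465 and did not pass (edgeR adjusted p = 0.494). Left-out libraries moved it between 0.97 and 1.59.

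**Figure D3:**
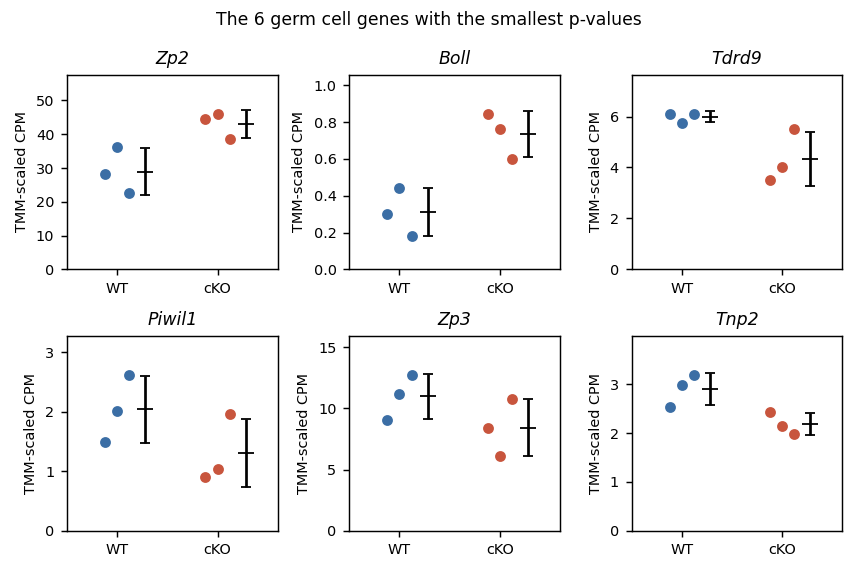
TMM-scaled CPM of the 6 germ cell genes with the smallest p-values, 1 point per library, with black bars for the mean and SD of each group. Zp2 and Boll have cKO points above all WT points and Tdrd9 and Tnp2 below, while Piwil1 and Zp3 overlap, and none passed the adjusted threshold.

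Of the 7 genes of the piRNA pathway, which uses small RNAs bound to PIWI proteins to silence transposons in germ cells, 5 had log2 fold changes below 0 (median −0.17) and none passed. Piwil2, a PIWI protein of fetal and postnatal male germ cells (ENSMUSG00000033644, chromosome 14, 70372477 to 70429383, minus strand), was the most abundant. It had 4.24, 5.17 and 5.80 TPM in WT and 4.09, 4.52 and 5.32 TPM in cKO, with overlapping groups (log2 fold change −0.15, SE 0.164, adjusted p = 0.859). Tdrd9, a helicase with a Tudor domain (ENSMUSG00000054003, chromosome 12, 111971559 to 112068854, plus strand), had 2.63, 2.34 and 2.53 TPM in WT and 1.49, 1.72 and 2.28 TPM in cKO. Its WT libraries lay close together and above all cKO libraries, the highest of which nearly reached them (log2 fold change −0.47, SE 0.194, adjusted p = 0.541).

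Piwil1, the PIWI protein of later male germ cells (ENSMUSG00000029423, chromosome 5, 128702524 to 128755474, plus strand), had 0.798, 1.014 and 1.35 TPM in WT and 0.481, 0.557 and 1.009 TPM in cKO. The groups overlapped through cKO library 3 (log2 fold change −0.64, SE 0.339, adjusted p = 0.652), and without that library the log2 fold change was −1.06. The Tudor domain genes Tdrd1, Tdrd5 and Tdrd6, which build the granules where piRNAs are made, had 1.16 ± 0.161, 0.586 ± 0.0792 and 0.509 ± 0.141 TPM in WT and 1.201 ± 0.219, 0.502 ± 0.240 and 0.459 ± 0.0995 TPM in cKO. Mael, a further piRNA factor, had 3 to 14 counts per library. It passed the filter of the main test but missed one that asked for a summed count of 60 over all libraries. Its groups overlapped (log2 fold change 0.08).

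Tex14, Tex15 and Tex101 were listed apart from the groups above. Tex14, which keeps open the bridges between dividing germ cells (ENSMUSG00000010342, chromosome 11, 87405065 to 87555823, plus strand), had 10.9, 12.8 and 10.7 TPM in WT and 11.5, 14.8 and 11.3 TPM in cKO. Its groups overlapped, and it had the smallest coefficient of variation between libraries fitted by edgeR, at 0.121 (log2 fold change 0.10, SE 0.129, adjusted p = 0.882). That coefficient had a median of 0.234 over the 34 germ cell genes and of 0.161 over all genes tested, and it reached 0.555 for Odf1. Tex15 had 0.783 ± 0.136 and 0.666 ± 0.126 TPM. The surface glycoprotein gene Tex101 had 1.17 ± 0.235 and 1.14 ± 0.765 TPM, with 0.397 and 1.92 TPM in cKO libraries 2 and 3.

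The transition proteins and protamines, which replace histones while the sperm nucleus is packed, were present at unequal levels. Tnp2 (ENSMUSG00000043050, chromosome 16, 10787936 to 10788660, minus strand) had 10.6, 11.8 and 12.9 TPM in WT and 10.1, 9.04 and 8.02 TPM in cKO. All cKO libraries were below all WT libraries, by a small margin (log2 fold change −0.41, SE 0.217, adjusted p = 0.654). Since its exons span 554 bases, this level rests on 99 to 156 counts per library. Prm1, in the same gene cluster (ENSMUSG00000022501, chromosome 16, 10796326 to 10805839, minus strand), had 3.88, 2.53 and 5.70 TPM in WT and 2.31, 4.16 and 5.19 TPM in cKO, with overlapping groups (log2 fold change −0.07, SE 0.404, adjusted p = 0.981). Its sign turned without WT library 3 (0.27) or without cKO library 1 (0.20). Prm2 had 1.15 ± 0.4695 and 1.40 ± 0.359 TPM. Tnp1 had 6, 20 and 7 counts in WT and 1, 2 and 7 in cKO and was not tested, and 9.2% of its exon bases overlap 1700027A15Rik on the opposite strand, with 12, 15 and 4 counts in WT and 2, 0 and 7 in cKO.

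Genes of the sperm head and tail had log2 fold changes on both sides of 0. Izumo1, the sperm protein that binds the egg membrane (ENSMUSG00000064158, chromosome 7, 45621811 to 45628823, plus strand), had 15.2, 7.71 and 11.1 TPM in WT and 11.4, 8.94 and 10.5 TPM in cKO. The WT libraries spanned both the highest and the lowest value (log2 fold change −0.15 with an SE of 0.198, edgeR adjusted p = 0.887, and 0.09 without WT library 1). Of its exon bases 21.9% overlap those of Rasip1 on the same strand, which had a mean of 1093 counts against 675.5, so its level may hold reads of Rasip1. Zpbp, which binds the zona pellucida, had 1.46 ± 0.512 and 1.56 ± 0.155 TPM, and the acrosomal vesicle gene Acrv1 had 1.34 ± 0.233 and 1.63 ± 0.511 TPM. Of the exon bases of Zpbp 5.2% overlap Spata48 on the opposite strand, which had a mean of 21.7 counts against 134.7 for Zpbp. Odf1, of the outer dense fibres, had 0.601 ± 0.374 and 0.394 ± 0.312 TPM. Acr, the acrosin protease, had 0.4175 ± 0.398 and 0.442 ± 0.189 TPM. Spaca1 was not tested, with 8 to 11 counts in WT and 7, 8 and 0 in cKO.

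Of the germ cell copies of common enzymes and chaperones, Ldhc, the sperm lactate dehydrogenase (ENSMUSG00000030851, chromosome 7, 46861203 to 46878142, plus strand), had 3.73, 3.47 and 4.50 TPM in WT and 2.41, 3.01 and 4.77 TPM in cKO. The groups overlapped (log2 fold change −0.22, SE 0.274, adjusted p = 0.882). Hspa1l, an HSP70 family gene of spermatids (ENSMUSG00000007033, chromosome 17, 34972703 to 34979285, plus strand), was listed at 7.01, 6.64 and 7.29 TPM in WT and 5.36, 8.12 and 6.54 TPM in cKO, with overlapping groups (log2 fold change −0.09 with an SE of 0.170, edgeR adjusted p = 0.932, and 0.05 without cKO library 1). That value is uncertain: 71.9% of its exon bases overlap Gm10501 on the opposite strand. The counts of Gm10501, 344, 362 and 376 in WT and 271, 391 and 353 in cKO, were close to those of Hspa1l, 344, 353 and 393 and 272, 397 and 360, and reads of the 2 genes cannot be told apart. Pgk2, the sperm phosphoglycerate kinase, had 2 to 10 counts per library and was not tested.

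Other germ cell genes outside the 37 gave the same count of calls, namely 0 in each list by edgeR, where 0.0596% of all genes tested were called and 8.51% had an unadjusted p under 0.05. With lists of this size, counts of 0 or 1 are near or below those shares. Of 20 further meiosis genes 17 were tested and 1 had an unadjusted p under 0.05, with a median log2 fold change of −0.17. Tex11, which promotes crossing over, had the smallest p, with 2.52, 3.32 and 2.95 TPM in WT and 1.61, 1.44 and 2.40 TPM in cKO. All cKO libraries were below all WT libraries (log2 fold change −0.71, SE 0.237, adjusted p = 0.425). Of 15 further piRNA genes all were tested, with 0 at an unadjusted p under 0.05 and a median of 0.02, and Tdrd12 had the smallest p (log2 fold change −0.60, SE 0.319, adjusted p = 0.655). Of 36 further sperm genes 24 were tested, with 1 at an unadjusted p under 0.05 and a median of −0.14. That gene was Fabp9, a fatty acid binding protein of the acrosome, which at 211, 274 and 230 TPM in WT and 266, 322 and 412 TPM in cKO was more abundant than any of the 37 (log2 fold change 0.46, SE 0.172, adjusted p = 0.523). Izumo2 was at 0 counts in all libraries, where 3 counts would correspond to at most 0.0660 CPM. Of 17 further oocyte genes 16 were tested, with 1 at an unadjusted p under 0.05 and a median of −0.09, and Kpna7, an oocyte importin, had the smallest p (log2 fold change 0.58, SE 0.219, adjusted p = 0.494).

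Of 18 genes whose products silence germline genes in somatic cells, all reached 1 TPM in WT and none passed or had an unadjusted p under 0.05 by edgeR (median log2 fold change −0.03), against 0.0596% and 8.51% of all genes tested, so that a count of 0 among 18 says little. Mga had 15.6 ± 1.29 TPM in WT and 17.5 ± 0.898 TPM in cKO, and Max had 31.1 ± 1.99 and 34.1 ± 2.09 TPM. The maintenance DNA methyltransferase gene Dnmt1 had 18.3 ± 1.13 and 16.7 ± 2.26 TPM. In TMM-scaled CPM Mga had 112.2, 107.0 and 99.1 in WT and 116.0, 121.4 and 113.5 in cKO. On that scale its groups did not overlap, as for 14.4% of all genes tested, while those of Max and Dnmt1 did. The log2 fold change of Mga was 0.14 (SE 0.0800, edgeR adjusted p = 0.682). Mga, Max and Dnmt1 were chosen after their values were seen. Of the 18 genes, 13 had log2 fold changes below 0, against 50.95% of all genes tested. The smallest p was that of Tfdp1, a partner of E2F proteins (log2 fold change −0.16, SE 0.0801, adjusted p = 0.618).

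The promoters of the germ cell genes differ in CpG content, the feature on which DNA methylation acts, so 3 of them are shown as examples. They are the 250 bases before the RefSeq start site in build GRCm38.p6, read along the gene, with each CpG in capitals: Ddx4 (chr13:112652311-112652560, minus strand), Stra8 (chr6:34920698-34920947, plus strand) and Tnp2 (chr16:10788656-10788905, minus strand).
Ddx4: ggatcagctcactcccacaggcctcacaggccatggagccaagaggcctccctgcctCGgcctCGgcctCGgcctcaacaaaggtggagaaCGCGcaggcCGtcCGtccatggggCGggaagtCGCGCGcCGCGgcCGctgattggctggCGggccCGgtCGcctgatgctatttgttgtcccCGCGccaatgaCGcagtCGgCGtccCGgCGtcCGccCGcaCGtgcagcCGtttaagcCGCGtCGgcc
Stra8: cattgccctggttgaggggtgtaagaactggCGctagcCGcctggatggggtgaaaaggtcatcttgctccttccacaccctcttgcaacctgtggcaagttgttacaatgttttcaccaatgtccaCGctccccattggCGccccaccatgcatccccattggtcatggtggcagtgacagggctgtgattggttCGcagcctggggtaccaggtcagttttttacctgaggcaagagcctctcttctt
Tnp2: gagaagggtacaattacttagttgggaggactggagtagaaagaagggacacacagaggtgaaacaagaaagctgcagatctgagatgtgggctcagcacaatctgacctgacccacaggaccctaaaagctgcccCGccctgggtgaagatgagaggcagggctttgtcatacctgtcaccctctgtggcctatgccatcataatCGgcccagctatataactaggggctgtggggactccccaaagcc
These stretches hold 31, 5 and 2 CpG.

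RefSeq promoters were matched for 30 of the 37 genes, as windows of 300 bases from 250 before to 50 after the start site nearest the annotated gene end. Zp2, the most abundant gene, is not among them, nor are Piwil2, Spo11, Tex15, Tdrd6, Odf1 and Acr. The start site lay 33722 bases from the annotated gene end for Piwil1, 9016 for Prm1, 4625 for Tex101, 4029 for Prm2 and 785 for Stra8. For the others it lay at most 316 bases away (Tdrd5). An observed over expected CpG ratio of 0.6 or more was found in 12 of 30, against 36.5% of 27025 genes. Levels in WT had a median of 1.17 TPM for these 12 (8 at 1 TPM or more, highest 11.5 TPM for Tex14) and of 1.598 TPM for the 18 with a lower ratio (15 at 1 TPM or more, highest 18.7 TPM for Zp3). Stra8, Zp3, Tnp2 and Izumo1, among the most abundant, had ratios of 0.430, 0.439, 0.174 and 0.423, and Ddx4 had 0.978. The abundant Tex14 had 0.686, and the scarce Boll and Pgk2 (0.199 and 0.234 TPM in WT) had 0.504 and 0.291. The median log2 fold changes were −0.15 and −0.13 for the tested genes of the richer and poorer class, each of which held values on both sides of 0.

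**Figure D4:**
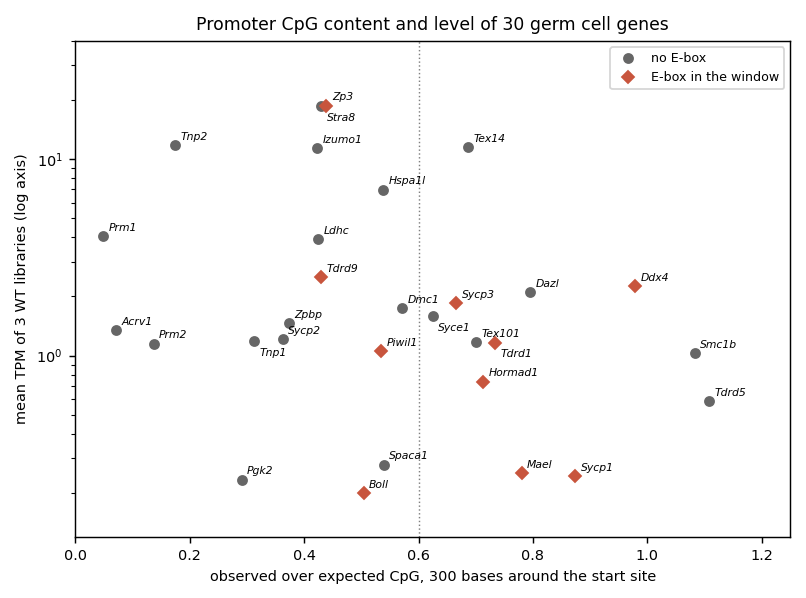
Mean TPM of the 3 WT libraries on a log axis against the observed over expected CpG ratio of the RefSeq promoter window, for the 30 germ cell genes with a matched promoter. The dotted line marks a ratio of 0.6 and red diamonds mark the 10 windows that hold an E-box, and the highest levels lie at ratios between 0.174 and 0.686.

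The E-box CACGTG, the word that MGA and MAX bind and that reads the same on both strands, occurred in 10 of the 30 windows (33.3%), against 7.24% of the windows of 27025 genes. Among windows with a CpG ratio of 0.6 or more it was in 6 of 12, against 11.4% of all genes of that class, and below that ratio in 4 of 18, against 4.87%. The stretch around the copy nearest the start site is shown for each, with the E-box in capitals, since this word was more frequent here than over all genes and did not enter their choice. For Piwil1 the start site lies 33722 bases inside the annotated gene.
Boll (chr1:55363745-55363774, minus strand): gagcagagtttgCACGTGggaacttgtctt
Ddx4 (chr13:112652322-112652351, minus strand): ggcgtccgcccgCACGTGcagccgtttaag
Hormad1 (chr3:95559645-95559674, plus strand): atgcgcactgcgCACGTGctgaccggagcg
Mael (chr1:166238950-166238979, minus strand): taccaggcctacCACGTGacaatccccgcc
Piwil1 (chr5:128736080-128736109, plus strand): atcagggcccagCACGTGtccacctcgccg
Sycp1 (chr3:102936177-102936206, minus strand): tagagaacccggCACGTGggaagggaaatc
Sycp3 (chr10:88459532-88459561, plus strand): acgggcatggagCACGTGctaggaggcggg
Tdrd1 (chr19:56826186-56826215, plus strand): tggggctgcgcgCACGTGggagtaaactgc
Tdrd9 (chr12:111971452-111971481, plus strand): gcacgaggctccCACGTGcatgcagggcct
Zp3 (chr5:135979912-135979941, plus strand): ttgaataggaatCACGTGgagtgtctttac
The centre of the E-box lay 6 bases before the start site in Boll and 220 before it in Mael, with the others in between. A match is a description of the letters and not a measured binding site.

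The 10 genes with the E-box had a median WT level of 1.11 TPM and the 20 without it 1.52 TPM. Their log2 fold changes were below 0 in 5 of 10 and in 13 of 17 tested, with medians of −0.15 and −0.13. The E2F-like word GCGGGAA, searched on both strands, was in 7 of 30 windows (23.3%), against 4.66% of all genes, and the windows of Ddx4, Hormad1 and Sycp3 held both words. The cAMP response element TGACGTCA, to which the sperm regulator CREM binds, was in 1 of 30 windows, that of Izumo1, against 1.88% of all genes.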

How the data were processed

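The data are read counts of 55385 genes in 6 libraries. Per the file headers, the authors made the deposited counts with featureCounts 2.0.0 on the Ensembl 99 annotation of GRCm38, over exons by gene, ignoring strand, counting reads rather than pairs, and counting a read for every gene it overlaps. Per the submitters' processing notes, TopHat2 2.1.1, SAMtools 1.9 and Subread 2.0.1 were used with build mm10. The deposited TPM, per the file headers of the series table, cover 51810 genes, whose counts equal those of the count files.

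The counts were tested with edgeR 4.0.16 in R 4.3.3 (TMM scaling, filterByExpr by group, robust quasi-likelihood F test, Benjamini-Hochberg adjustment over 28543 genes, threshold 0.05). The SE is the log2 fold change over the root of F. TPM were used only to describe levels, and lie on a scale without TMM. In counts simulated for this comparison over 27923 genes, 77% of changes of 2-fold and 39% of those of 1.5-fold were recovered, and 16 of the 132 genes called were false. The changes were placed only in genes with a mean above 1 CPM. Boll and some other germ cell genes lay below that level, so these rates do not cover them. The germ cell genes vary more between libraries than most genes, so recovery among them may be lower. Alternatives were DESeq2 1.42.0, limma-voom 3.58.1, other scalings and filters, a replicate block and left-out libraries. Promoters are from RefSeq (GRCm38.p6). The members and lists were chosen with earlier results of these data known. Values per library are given for the 12 genes of highest mean TPM and the 5 of smallest p. In bulk samples, fewer cells of a type and less RNA per cell cannot be told apart. Floors cover counting error only.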

Additional observations from a re-analysis of the deposited data

How the results depend on the processing

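The count of genes called among all genes was 17 and moved to 203 with the replicate number as a block, 180 with DESeq2, 160 without a filter, 6 with the non-robust fit and 5 with limma-voom, and to between 6 and 16 with 1 library left out. Germ cell genes called higher went from 0 to 1 (Zp2) with the block (log2 fold change 0.59, adjusted p = 0.00839, where 0.711% of all genes were called), with DESeq2 (1) and without a filter (1), and stayed at 0 in the other settings; 0 were called lower in any setting run. Same-numbered libraries had correlated deviations from their group means (r = 0.200, 0.0994 and 0.145), not all above 0.1, so the numbers were not taken as pairs, although every library correlated best with its own number. The median log2 fold change of the germ cell genes lay between −0.26 and −0.0562 with 1 library left out. The count at 1 TPM or more in WT was 26, and 14 at a level of 2 TPM. The summed TPM had a log2 ratio of cKO to WT of −0.01, and −0.17 without Zp2 and Stra8. Signs near 0 turned for Ddx4 (−0.0014 with upper quartiles, −0.0097 with library totals) and, with 1 library left out, for Ddx4 (−0.16 to 0.22), Tex14 (−0.0224 to 0.21), Izumo1 (−0.35 to 0.0922), Hspa1l (−0.24 to 0.0495) and Prm1 (−0.36 to 0.27). The cause of these moves was not tested. Counts of 0 to 20 per library limit what can be said of Mael, Tnp1, Spaca1 and Pgk2. Low counts also limit Odf1 (1 to 23 per library), Acr (4 to 27) and Sycp1 (8 to 24).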
